A study of Mus musculus with 4 samples.

Results

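The genes described here are 47 mouse genes for nuclear hormone receptors and their coregulators, chosen by name from the 28096 gene identifiers that were counted. They comprise 39 of the 49 nuclear receptor genes listed, the membrane estrogen receptor gene Gper1, and 7 coregulator genes. They were measured in 4 polyadenylated RNA libraries of cultured mouse alveolar type II cells, which make lung surfactant. All 4 libraries carry a single genotype label, and the series text lists 3 genotypes without saying which of them this label names. Every one of those genotypes carries RosaCreERT2, and Etv5 (with or without Etv4) is altered in some of them. The label itself ends in "Etv wt", without naming Etv4 or Etv5. Only libraries with that single label were analysed here. RosaCreERT2 is a Cre recombinase joined to an estrogen receptor hormone-binding part that answers to 4-hydroxytamoxifen and is placed at the widely expressed Rosa26 locus. The sort took EpCAM-positive lung cells lacking CD24, CD45, CD31 and podoplanin. These were embedded in matrigel and kept in BEGM, a bronchial epithelial medium, for 4 days with 100 nM 4-hydroxytamoxifen and 1 further day without it. Libraries are called 1 to 4, which are names only; the labels do not tie them to single mice and give neither age nor sex. Differences between libraries therefore measure a spread that may be partly technical.

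Nuclear receptors are transcription factors with a DNA-binding domain of zinc fingers and a domain that holds a small lipophilic ligand, such as a steroid, a retinoid, thyroid hormone or a fatty acid. Without ligand, many sit on DNA with corepressors such as NCoR, and binding of ligand exchanges these for coactivators of the SRC family and the acetyltransferases p300 and CBP. In the lung, glucocorticoid and retinoid receptors are known for their part in alveolar maturation, and PPARγ for lipid handling in alveolar cells. BEGM as commonly sold is supplemented with a glucocorticoid, retinoic acid and triiodothyronine, which are ligands of 3 of these receptor families; the labels give the medium by name only.

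Between 12133251 and 13591876 reads were counted per library. Mitochondrial ribosomal RNA took 23.0%, 35.1%, 19.6% and 38.9% of them in libraries 1 to 4. Levels are given in nRPKM, the authors' RPKM adjusted by a size factor, and a gene was taken as read in a library when it had more than 3 reads. A count of 0 allows up to 3 reads, which is between 0.221 and 0.247 CPM; this covers counting error only. All 10 type II markers had a mean of at least 10 nRPKM, as the label gives, and so did 7 of 8 type I markers. Airway markers were read as well: 5 of 5 club cell markers had a mean of at least 1 nRPKM and summed to 320, 1060, 150 and 281 nRPKM in libraries 1 to 4, led by Scgb1a1. Of 5 basal cell markers, 3 had such a mean, and the 5 summed to 144, 102, 20.01 and 46.7 nRPKM, led by Krt5. Library 3 stood apart in having 66.3 nRPKM of Xist, against 0.255 to 0.784 in the others, and 0 to 9 reads for each of 4 Y-linked genes. Library 1 had the lowest summed level of type II markers (10444 nRPKM, against 16775 to 22623) and of cell cycle markers (67.2, against 127 to 173).

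Of the 47 genes, 34 (72.3%) were read in all 4 libraries, against 52.2% of all identifiers. A mean level of at least 1 nRPKM was reached by 30 of them (63.8%), against 42.4% of all identifiers, made up of 24 of 40 receptor genes and 6 of 7 coregulator genes. A mean of 10 nRPKM was reached by 4: the corepressor gene Ncor1, the fatty acid receptor gene Pparg, the clock receptor gene Nr1d1 and the glucocorticoid receptor gene Nr3c1. The lowest of these 4 means, that of Nr3c1 (10.6 nRPKM), lay above 86.9% of all genes. Beside the 34 genes read in all 4 libraries, 6 were read in some libraries and 7 in none, of which Esrrb and Nr5a2 had no read at all. In bulk RNA, fewer cells that carry a transcript and less of it per cell cannot be told apart.

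**Figure D1:**
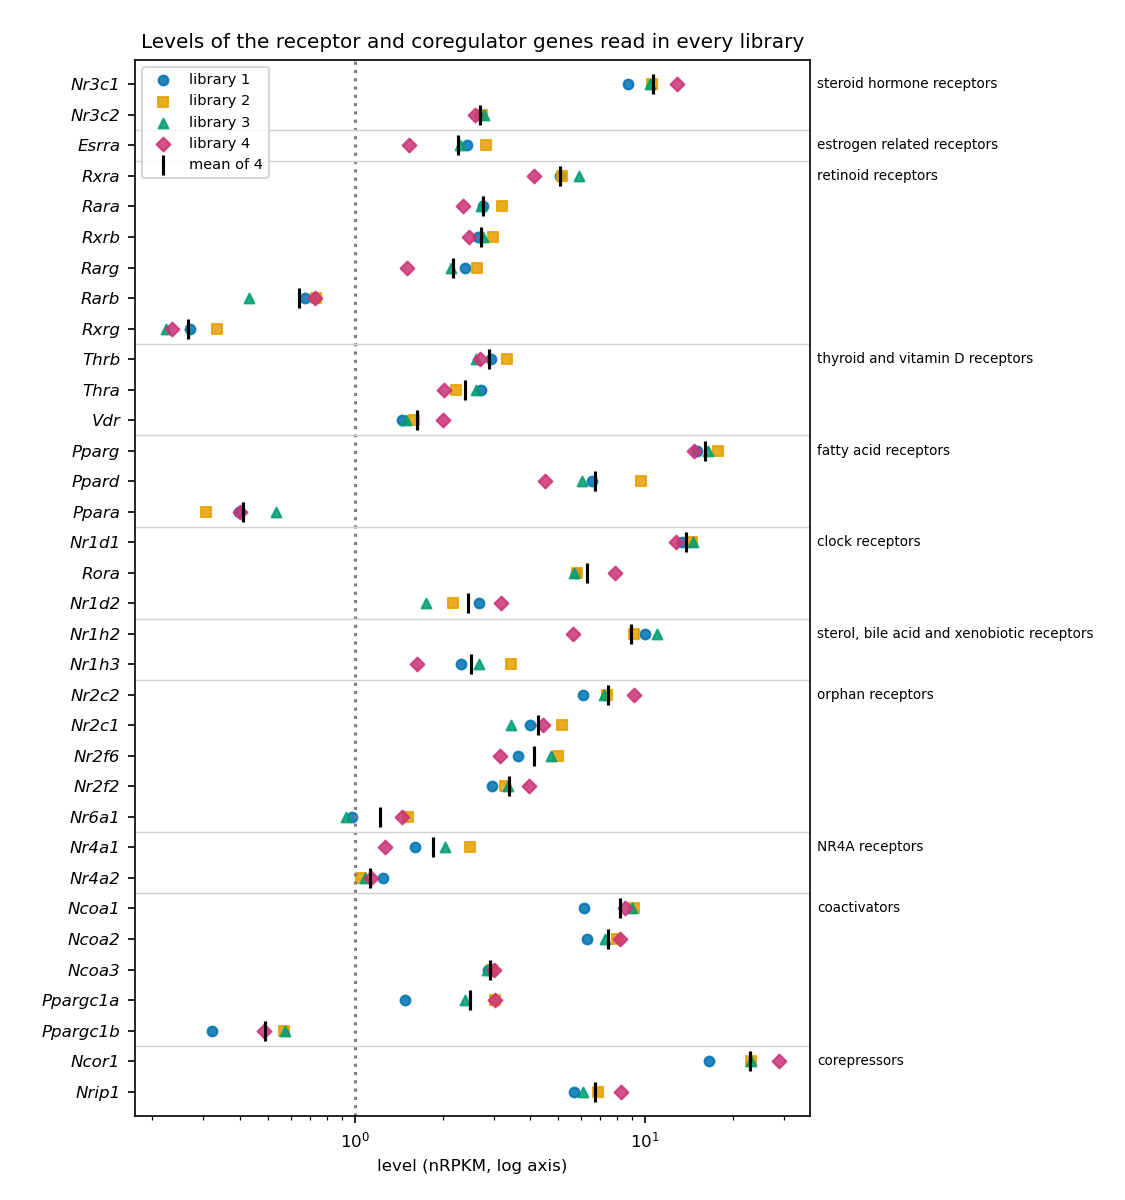
Level of each of the 34 genes read in all 4 libraries, in nRPKM on a log axis, with a symbol for each library and a bar for the mean; the dotted line is 1 nRPKM. Ncor1, Pparg, Nr1d1 and Nr3c1 lie highest, and Rxrg, Ppara, Ppargc1b and Rarb lie below the line.

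Among steroid hormone receptors, those for glucocorticoid and mineralocorticoid were present and those for sex steroids were at or near the limit of detection. Nr3c1 (Entrez 14815), which encodes the glucocorticoid receptor, had between 1122 and 1377 reads per library, which is 8.70, 10.5, 10.4 and 12.9 nRPKM in the order of libraries 1 to 4. Nr3c2 (110784), for the mineralocorticoid receptor, had 2.69, 2.73, 2.78 and 2.58 nRPKM. Library 1 was lowest and library 4 highest for Nr3c1, while Nr3c2 was nearly the same in all 4. The ratio of Nr3c1 to Nr3c2 was 3.95 ± 0.741 (SD, n = 4).

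Esr1 (13982), the gene of estrogen receptor alpha, had 8, 4, 3 and 5 reads in libraries 1 to 4, or 0.0618 ± 0.0248 nRPKM (SD, n = 4). The beta receptor gene Esr2 (13983) had 2 reads in library 2 and none elsewhere. The progesterone receptor gene Pgr, itself a classical estrogen target, had 1 read in libraries 2 and 3 and none in the others. Endogenous nuclear estrogen receptors, which bind the tamoxifen metabolite given to these cultures, were represented by at most 8 reads per gene and library. The tables count reads per mouse gene model, so any read of the estrogen receptor part of CreERT2 that aligned to Esr1 would be counted in these numbers. Gper1, for a membrane receptor proposed to bind estrogen, had 8, 2, 2 and 11 reads and passed the floor in libraries 1 and 4 only. Of the 8 estrogen target genes listed, Ctsd (298 ± 79.7 nRPKM), Areg (167 ± 41.7) and Ltf (2.19 ± 1.27) were highest, whereas Greb1 had 2 to 9 reads and Tff1 none. Ctsd and Areg are also made in many cells without estrogen receptors.

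Of the estrogen-related receptors, which need no estrogen and act on mitochondrial genes, a single member was present. Esrra (26379) had 2.43, 2.81, 2.30 and 1.53 nRPKM, lowest in library 4. Esrrg had 0, 5, 1 and 1 reads and Esrrb had none. The coactivator Ppargc1a (PGC-1α), a partner of Esrra in mitochondrial gene control, had 1.49, 3.04, 2.40 and 3.04 nRPKM and was lowest in library 1. Its relative Ppargc1b had 0.322, 0.570, 0.575 and 0.487 nRPKM, and the ratio of Ppargc1a to Ppargc1b was 5.10 ± 0.908 (SD, n = 4).

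The retinoid receptor genes, which encode receptors for all-trans (RAR) and 9-cis (RXR) retinoic acid, were all read in every library, with 4 of 6 at a mean of at least 1 nRPKM. Rxra (20181), whose product is the common dimer partner of retinoid, thyroid, vitamin D, fatty acid and sterol receptors, led with 5.08, 5.17, 5.88 and 4.14 nRPKM in libraries 1 to 4. Rxrb had 2.66, 2.99, 2.76 and 2.46 nRPKM, and Rxrg had 0.222 to 0.334. Rxra therefore exceeded Rxrb by 1.86 ± 0.205 times (SD, n = 4). Among the RARs, Rara (19401) had 2.77, 3.22, 2.71 and 2.36 nRPKM and Rarg had 2.38, 2.63, 2.14 and 1.51. These lay close together, with a ratio of Rara to Rarg between 1.16 and 1.56 over the libraries.

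Rarb (218772) had 0.672, 0.731, 0.430 and 0.730 nRPKM from 25 to 38 reads, the least of the RARs in each library. Its product acts as a retinoic acid receptor and the gene is a textbook retinoic acid target through a direct repeat of the receptor half-site in its promoter. In annotated transcripts of another assembly (GENCODE M21, GRCm38), 34.1% of the exon bases of Rarb also lie in exons of Top2b on the opposite strand. Top2b had 12.7 to 20.8 nRPKM, and strand use in the counting is not given in the sources used here, so the level of Rarb is uncertain. The repeat was looked for on both strands in the 250 bases before each RefSeq start site (GRCm38.p6), as any pair of half-sites with 5 bases between them. The half-sites allowed were the textbook form AGGTCA, both forms that stand in Rarb (GGTTCA upstream and AGTTCA downstream), and GGGTCA as a further variant. Of 32851 such windows, 29 (0.0883%) held it. Among the 42 of the 47 genes with a window, Rarb was the one gene that held the repeat. Its match was fixed in advance, because its own half-sites were among those allowed. Cyp26a1, which encodes a retinoic acid-degrading enzyme, also held the repeat. Both windows are shown because they carry this repeat and belong to genes with low or no reads here. Whether retinoic acid acted on either gene was not tested. Capitals mark the half-sites, on the opposite strand in Cyp26a1.
Rarb, chr14:16575477-16575726, minus strand: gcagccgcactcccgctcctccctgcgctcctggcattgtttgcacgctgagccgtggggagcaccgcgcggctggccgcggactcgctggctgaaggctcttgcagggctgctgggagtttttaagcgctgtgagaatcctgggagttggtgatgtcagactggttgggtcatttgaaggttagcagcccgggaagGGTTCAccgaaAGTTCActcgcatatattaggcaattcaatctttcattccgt
Cyp26a1, chr19:37697558-37697807, plus strand: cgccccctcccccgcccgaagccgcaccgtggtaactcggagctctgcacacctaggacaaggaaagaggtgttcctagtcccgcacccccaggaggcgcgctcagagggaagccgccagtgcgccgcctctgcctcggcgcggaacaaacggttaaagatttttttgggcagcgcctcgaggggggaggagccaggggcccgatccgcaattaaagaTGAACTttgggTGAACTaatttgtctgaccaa

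The repeat ended 36 bases before the start site of Rarb and 15 bases before that of Cyp26a1. Cyp26a1 had no read in any of the 4 libraries, and Cyp26b1, for a related enzyme, had 48, 7, 4 and 2 reads. Of 5 further retinoic acid target genes, Tgm2 had 10.1 ± 1.38 nRPKM, and Crabp2 (0.503 ± 0.335) and Stra6 had means below 1 (SD, n = 4). A motif match is a description of these letters only. No window of the 47 genes held the same half-sites as a direct repeat with 4 bases between (0.0670% of all windows) or with 1 base between (0.164%). The glucocorticoid palindrome GNACANNNTGTNC (0.387%) and the estrogen palindrome GGTCANNNTGACC (0.0639%) were not found in them either. The single half-site AGGTCA, which can be part of such repeats, stood in 15.6% of the 64 windows of these genes, against 14.02% of all windows.

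Enzymes that make or remove ligands were measured beside the receptors. Rdh10 (24.2 ± 8.60 nRPKM) and Aldh1a1 (22.8 ± 7.001), which act in sequence from retinol to retinoic acid, and Dhrs3 (14.6 ± 3.90), which returns retinal to retinol, were the highest of 19 genes for ligand metabolism (SD, n = 4). Hsd11b2, which inactivates glucocorticoids, had 3.13, 4.17, 3.00 and 1.56 nRPKM. Hsd11b1, which regenerates them, had 3.83, 0.779, 0.198 and 0.509, so that it exceeded Hsd11b2 in library 1 only. Aromatase (Cyp19a1) and the vitamin D-degrading Cyp24a1 had no reads.

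The thyroid hormone receptor genes were near each other. Thra (21833) had 2.71, 2.23, 2.62 and 2.02 nRPKM and Thrb (21834) had 2.93, 3.33, 2.62 and 2.70, so they were equal to 3 digits in library 3. Thra shares 5.70% of its annotated exon bases with Nr1d1 on the opposite strand, and reads there cannot be assigned without strand. The vitamin D receptor gene Vdr (22337) had 1.45, 1.59, 1.49 and 2.00 nRPKM, highest in library 4.

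Of the receptors for fatty acids, Pparg (19016) was the highest receptor gene by mean level. Its level was 15.1, 17.8, 16.4 and 14.7 nRPKM, resting on 474 to 681 reads per library, and its mean lay above 91.4% of all genes. Ppard (19015) had 6.55, 9.63, 6.04 and 4.52 nRPKM, and Ppara, the liver-type receptor of fatty acid oxidation, had 0.307 to 0.533. Pparg exceeded Ppard by 2.53 ± 0.594 times (SD, n = 4), and the lowest library of both was library 4. Alveolar macrophages also express Pparg. The 13 macrophage and leukocyte markers summed to 78.7, 69.8, 29.3 and 22.5 nRPKM in libraries 1 to 4, with 11 of 13 read in all 4, Cd3e at 0 to 1 reads. The sort removed CD45-positive cells, and the part of leukocytes in the level of Pparg was not tested. Of 12 PPAR target genes, 9 had a mean of at least 1 nRPKM, led by the fatty acid transporter gene Cd36 (213 ± 16.8), the lipid droplet gene Plin2 (60.4 ± 24.1) and the oxidation enzyme gene Acadl (46.9 ± 10.5). The adipocyte gene Adipoq had 0 to 1 reads.

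The sterol-sensing liver X receptors were represented mainly by Nr1h2 (22260, LXRβ), with 9.97, 9.15, 10.9 and 5.62 nRPKM. Nr1h3 (22259, LXRα) had 2.31, 3.43, 2.67 and 1.63 nRPKM. Both were lowest in library 4, and Nr1h2 was 3.63 ± 0.738 times as high as Nr1h3 (SD, n = 4). LXR target genes were led by the desaturase gene Scd1 (1395 ± 436 nRPKM), the phospholipid enzyme gene Lpcat3 (26.1 ± 4.64) and the lipogenic factor gene Srebf1 (13.4 ± 4.15). The sterol exporter gene Abcg1, also abundant in macrophages, had 0.910, 0.793, 0.263 and 0.169 nRPKM, in the same order of libraries as the summed leukocyte markers; their part in it was not tested. The receptors of bile acids and foreign compounds were barely read: Nr1h4 (FXR) had 1, 0, 0 and 4 reads, Nr1i2 (PXR) had 0, 1, 2 and 1, and Nr1i3 (CAR) had 2, 9, 3 and 1. In the annotation, 74.9% of the exon bases of Nr1i3 overlap Tomm40l, which had 101 to 197 reads.

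Receptors of the circadian clock differed widely in level. Nr1d1 (217166, REV-ERBα), a repressor in the clock loop, had 13.4, 14.4, 14.6 and 12.8 nRPKM from 546 to 805 reads. Its relative Nr1d2 (353187) had 2.67, 2.17, 1.76 and 3.17 nRPKM. Library 3 was highest for Nr1d1 and lowest for Nr1d2, and library 4 the reverse. The ratio of Nr1d1 to Nr1d2 was 5.998 ± 1.88 (SD, n = 4), and lay between 4.02 and 8.31. Rora (19883), which activates from the elements that Nr1d1 represses, had 5.75, 5.81, 5.68 and 7.86 nRPKM. Its deposited values imply a gene model of about 1654 bases, against 10878 in the longest annotated transcript, so most of that transcript was not counted. Rorb had 1 read in library 1 and none elsewhere. Of 14 other clock genes, 12 had a mean of at least 1 nRPKM, led by Bhlhe40 (43.7 ± 8.25), Clock (10.3 ± 0.847) and Dbp (6.12 ± 1.54; SD, n = 4).

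Of the orphan receptors, 5 of 7 had a mean of at least 1 nRPKM. Nr2c2 (TR4) had 6.10, 7.40, 7.19 and 9.15 nRPKM and Nr2c1 (TR2) had 4.01, 5.18, 3.43 and 4.42. Nr2f6 (EAR2) had 3.65, 5.003, 4.72 and 3.15 nRPKM and Nr2f2 (COUP-TFII) had 2.96, 3.30, 3.36 and 3.98. Nr2f2 was highest in library 4, where Nr2f6 was lowest. Exon overlap makes some of these uncertain: 30.7% of the exon bases of Nr2c2 lie in Mrps25 (4.98 to 6.14 nRPKM) and 54.4% of those of Nr2f6 in Ocel1 (0.780 to 0.891 nRPKM), each on the opposite strand. Nr6a1, the germ cell nuclear factor, had 0.931 to 1.52 nRPKM. Nr2f1 (COUP-TFI) had 6, 3, 0 and 0 reads. The 9 mesenchymal markers, 7 of which were read in all libraries, summed to 29.1, 17.9, 5.53 and 12.9 nRPKM, with Tcf21 at 0 to 1 reads; their part in the reads of Nr2f1 was not tested.

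The NR4A receptors, which are encoded by immediate early genes and act without a known hormone, were low. Nr4a1 (15370) had 1.60, 2.48, 2.04 and 1.26 nRPKM, Nr4a2 (18227) had 1.25, 1.04, 1.08 and 1.14, and Nr4a3 had 0, 0, 1 and 1 reads. Nr4a1 was above Nr4a2 in all 4 libraries, by the least in library 4.

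The 6 coregulator genes at 1 nRPKM or more had a median of means of 7.08 nRPKM, against 2.83 for the 24 receptors there. Not all coregulators were high: Ncoa3 (mean 2.92) lay near the receptor median, Ppargc1a (2.49) below it, and Ppargc1b (0.488) under 1 nRPKM. Ncor1 (20185), the scaffold of the HDAC3 corepressor complex, had the highest mean of the 47 genes, with 16.6, 23.2, 23.0 and 28.9 nRPKM from 3778 to 5376 reads. Nrip1 (268903, RIP140), a corepressor recruited by liganded receptors, had 5.70, 6.85, 6.12 and 8.24 nRPKM. Both were lowest in library 1 and highest in library 4. The SRC coactivator genes Ncoa1 (17977) and Ncoa2 (17978) had 6.14, 9.14, 8.99 and 8.51, and 6.30, 7.97, 7.27 and 8.20 nRPKM. Ncoa3 was lower and the steadiest member, at 2.87, 2.97, 2.84 and 3.01 nRPKM. Ncoa1 exceeded Ncoa3 by 2.80 ± 0.464 times, and Ncor1 exceeded Ncoa1 by 2.80 ± 0.407 times (SD, n = 4).

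Genes of the same complexes outside the 47 were also present. Of 23 other coregulator genes, 22 had a mean of at least 1 nRPKM and 11 at least 10. The highest were the NCoR complex subunit gene Tbl1x (29.3 ± 2.20), the prohibitin gene Phb2 (28.8 ± 4.48) and the coactivator gene Ncoa6 (19.1 ± 4.84; SD, n = 4). Chaperones that hold steroid receptors ready for ligand were read in full, with 9 of 9 at 1 nRPKM or more, led by Hsp90ab1 (370 ± 79.4), the immunophilin gene Fkbp4 (95.1 ± 37.4) and Bag1 (65.5 ± 11.9). Of the 10 nuclear receptor genes not among the 47, 1 had a mean of at least 1 nRPKM, and Hnf4a had 0.347 ± 0.150 nRPKM (SD, n = 4). Glucocorticoid target genes were present for 6 of 7 at 1 nRPKM or more, led by Dusp1 (17.0 ± 9.24), Klf9 (11.3 ± 2.13) and Sgk1 (3.60 ± 2.14; SD, n = 4). Of the targets of PXR and CAR, Ugt1a1 had 13.2 ± 1.75 nRPKM, Cyp2b10 had 5.64 ± 4.81, Abcb1a had 0.278 ± 0.242 and Cyp3a11 had no reads; Ugt1a1 shares 80.2% of its 50-base words with other genes, so its level is uncertain.

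Related genes were compared within each library for 14 pairs, as the difference of log2(nRPKM + 1), first minus second. In 13 pairs the difference had the same sign in 4 of 4 libraries, with p = 0.13 and a Benjamini-Hochberg adjusted p of 0.135 (two-sided exact sign-flip permutation test, n = 4), where 0.13 is the smallest p the test can give. No pair could therefore pass 0.05. Differences included -2.12 ± 0.34 for Nr1d2 minus Nr1d1, 1.67 ± 0.24 for Esrra minus Esrrg and 1.64 ± 0.23 for Nr3c1 minus Nr3c2. Their order depends on the pseudocount: with 0.1 in place of 1, Esrra minus Esrrg was 4.32, Nr1d2 minus Nr1d1 -2.48, Ppargc1b minus Ppargc1a -2.11 and Nr3c1 minus Nr3c2 1.93. Thra minus Thrb was -0.20 ± 0.19, about the size of its SD, and Esr1 minus Esr2 was 0.07 ± 0.05 at levels near zero. Nr2f6 minus Nr2f2 was 0.21 ± 0.33, with Nr2f6 higher in 3 of 4 libraries (exact permutation p = 0.375, adjusted p = 0.375), so these levels were not separated.

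**Figure D2:**
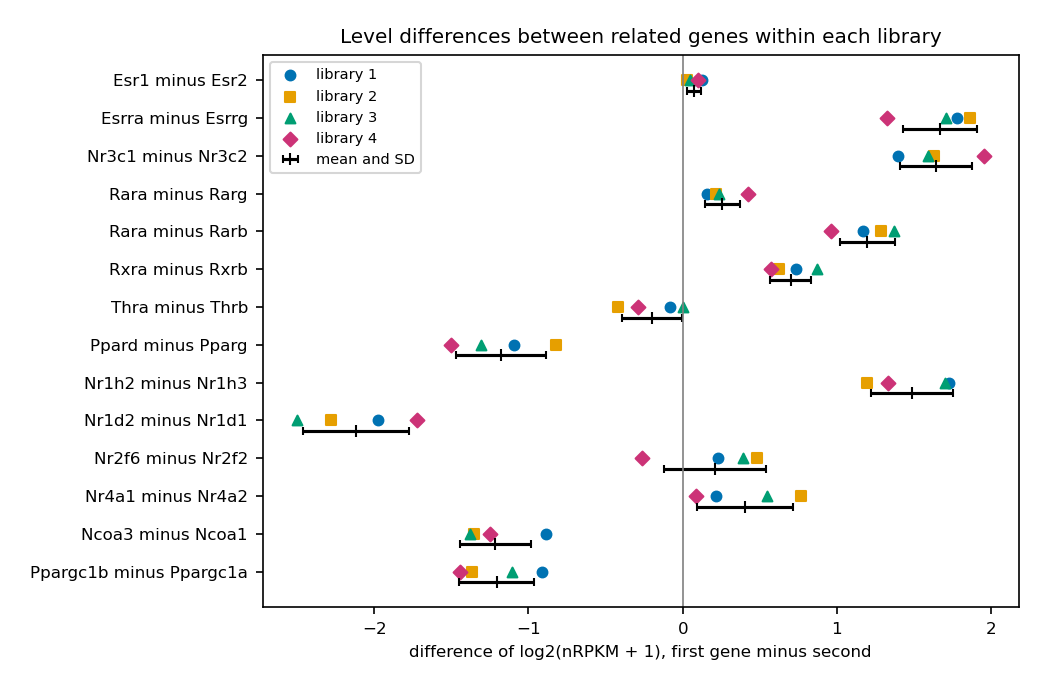
Difference of log2(nRPKM + 1), first gene minus second, for 14 pairs of related genes, with a symbol for each library and a bar for the mean and SD over 4 libraries. The symbols of Nr2f6 minus Nr2f2 lie on both sides of 0, and library 3 lies at 0 for Thra minus Thrb.

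None of the 33 tested genes of the 47 was called as varying between libraries beyond the trend of genes at similar level. The edgeR quasi-likelihood test compares each gene's dispersion with that trend, and does not ask whether a gene varied at all. Of the 47, 33 could be tested and 0 passed an adjusted p of 0.05 in edgeR, against 0.0152% of the 13156 genes tested. With so few calls over all genes, 0 of 33 says nothing particular about this set. At an unadjusted p under 0.05 the count was also 0 of 33, against 5.08% of the genes tested. DESeq2 marked 0 of 45 as dispersion outliers, against 71 of 20579 genes, so a set of this size would rarely hold any. The lowest p was 0.131 for Ppard (adjusted p = 0.997, edgeR), followed by 0.150 for Ppargc1a and 0.205 for Nr1h2. Of the 30 genes at 1 nRPKM or more in the mean, 27 differed by less than 2-fold between their highest and lowest library, as did 78.1% of the 11748 genes that meet the same limits on reads and level. The exceptions were Ppard (2.13-fold), Nr1h3 (2.11-fold) and Ppargc1a (2.05-fold). The median ratio of highest to lowest library was 1.46 for the 30, against 1.58 for those 11748 genes. The lists of other receptors, coregulators, chaperones, ligand enzymes, targets and clock genes held 119 genes, of which 85 were tested and 0 called. In them, 12 of 85 had an unadjusted p under 0.05 in edgeR, a larger share than 668 of all 13156 genes. DESeq2 marked 2 of these as outliers. Among cell type and cell cycle markers, 0 of 51 tested were called, 22 had an unadjusted p under 0.05 in edgeR and 7 were DESeq2 outliers.

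**Figure D3:**
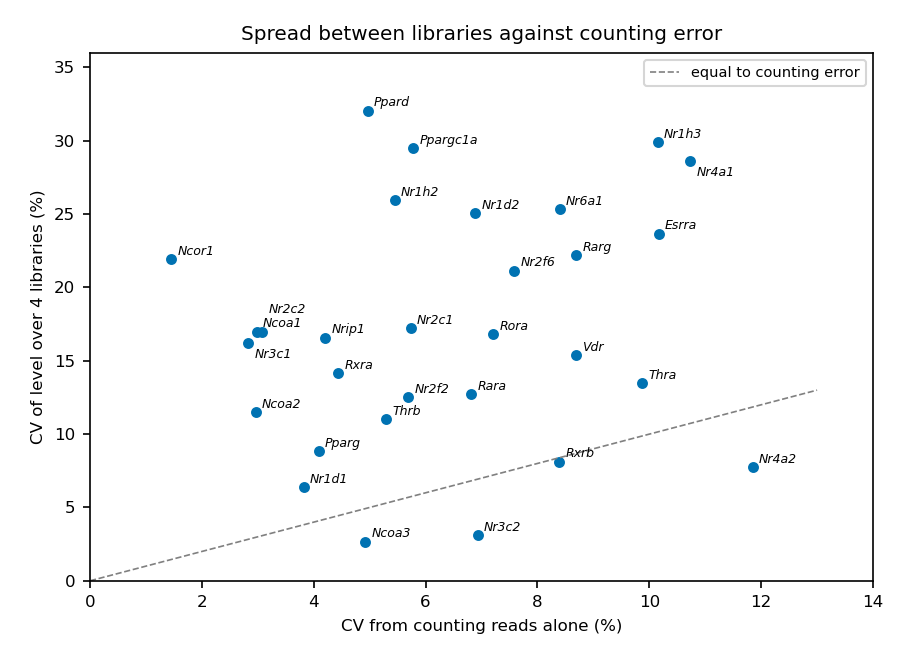
Coefficient of variation of the level over 4 libraries (percent) against that expected from counting reads alone (percent), for the 30 genes at 1 nRPKM or more; the dashed line marks equality. Ncoa3, Nr3c2, Nr4a2 and Rxrb lie at or below the line, and Ppard and Ncor1 lie far above it.

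Part of this spread is what counting reads alone would give. For 4 of the 30 genes, against 4.6% of the 11748 comparable genes, whose median level was higher (5.93 nRPKM, against 3.16 for the 30), the coefficient of variation over libraries was no more than that of counting reads: Ncoa3 (2.68%, against 4.92% from counting), Nr3c2 (3.13%, against 6.93%), Nr4a2 (7.77%, against 11.8%) and Rxrb (8.13%, against 8.39%). Ppard (32.1%, against 4.96%) and Ncor1 (21.9%, against 1.45%) were the clearest cases of spread beyond counting.

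Although no single gene was called, the genes were ordered unevenly over the libraries. Library 4 was the lowest of the 4 for 14 of the 30 genes (46.7%), against 28.2% of the 11748 comparable genes, and the highest for 10 (33.3%), against 27.5%. Library 2 was highest for 14 (46.7%), against 25.4%, and lowest for Nr4a2 alone (3.33%), against 26.5%. Library 2 also had the highest summed level of club cell markers (1060 nRPKM, against 150 to 320 in the others); their part in this order was not tested. Library 1 was lowest for 9 (30%), against 27% of all such genes, with 5 coregulators among these 9, and highest for 2 (6.67%), against 22.4%. Library 3 was lowest for 6 (20%), against 18.2%, and highest for 4 (13.3%), against 24.6%. Genes are not independent replicates, and these shares were not tested. The 14 lowest in library 4 were Esrra, Nr3c2, Rara, Rarg, Rxra, Rxrb, Thra, Ppard, Pparg, Nr1d1, Nr1h2, Nr1h3, Nr2f6 and Nr4a1. The 10 highest there were Nr3c1, Vdr, Nr1d2, Rora, Nr2c2, Nr2f2, Ncoa2, Ncoa3, Ncor1 and Nrip1. Each of the 6 coregulators among the 30 was outside the first set. Of 22 other coregulator genes within the same limits on reads and level, 6 were lowest in library 4.

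These sets differed in base composition and length of their transcripts. The longest protein-coding transcript (GENCODE M21) had a median GC content of 59.0% (range 47.5% to 67.3%) for the 14 genes lowest in library 4, and 45.7% (40.9% to 52.4%) for the 10 highest there. Their median lengths were 2590 and 7589 bases. For some genes the gene model implied by the deposited values was shorter than this transcript. Examples are Rora (1654 against 10878 bases), Nrip1 (4547 against 7868) and Nr3c2 (4103 against 5916), and for Rara it was longer (4147 against 3384). GC content and length of what was counted may therefore differ from the values used here. Across the 30 genes, the log2 ratio of library 4 to the mean of the 4 libraries had a Spearman rho of -0.82 and a Pearson r of -0.83 with GC content, as a description across genes that share the library. In libraries 1, 2 and 3 the rho was 0.40, 0.41 and 0.61. Over 10169 genes with a transcript, rho with GC content was 0.0018, 0.18, 0.39 and -0.47 in libraries 1 to 4, so that library 1 had next to no relation with GC content there. With transcript length, rho was -0.53, -0.38, -0.50 and 0.81 across the 30 genes. Over the 10169 genes it was -0.28, -0.11, -0.098 and 0.45. Each ratio is to a mean that includes all 4 libraries, so the values of the libraries are not independent of each other. Over all comparable genes the median GC content was 54.4% for those lowest in library 4 and 46.1% for those highest there. Library 4 also had the highest share of mitochondrial ribosomal RNA (38.9%). The part of composition, length and this share in the order of the receptor genes was not tested.

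**Figure D4:**
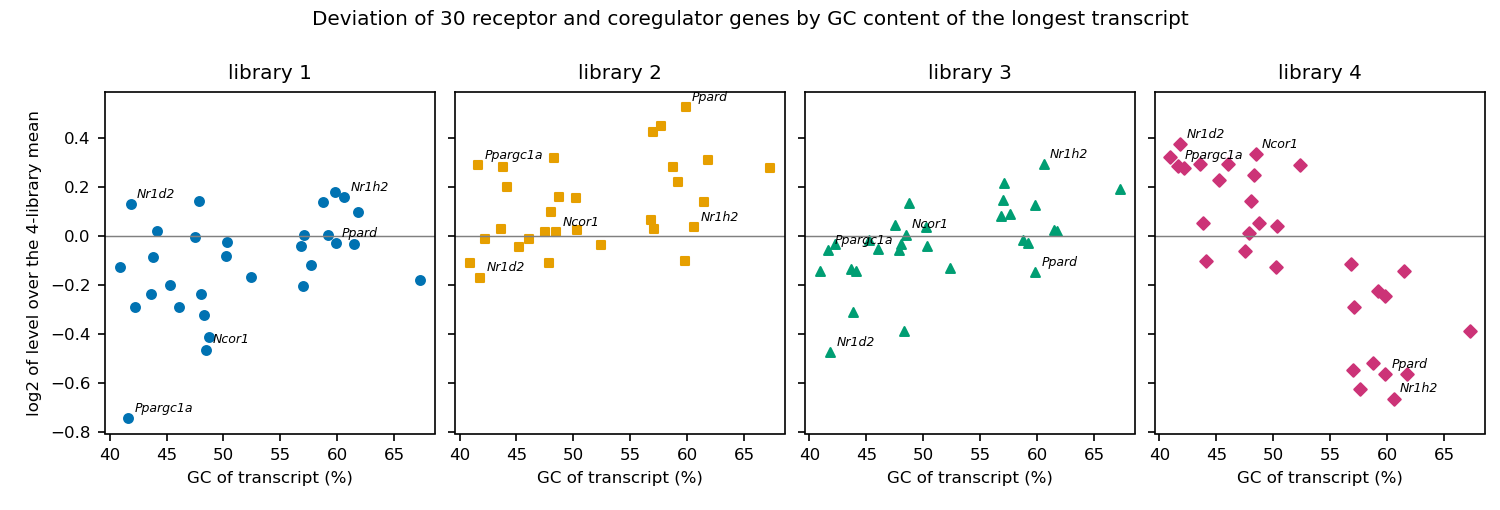
Log2 of the level in each library over the mean of 4 libraries, against GC content (percent) of the longest transcript, for 30 receptor and coregulator genes, with a panel for each library. In library 4 the genes above 55% GC lie below 0, whereas Ncor1, Nr1d2 and Ppargc1a lie above it.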

How the data were processed

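The data are RNA-seq tables of 4 libraries of cultured alveolar type II cells. Per the file headers, the deposited counts are uniquely aligned reads per gene model, and the RPKM is adjusted by a size factor (nRPKM). Per the submitters' processing notes, GSNAP and mm9 were used; tool versions, the gene models, strandedness and filtering were not given there. Symbols came from a RefSeq table (GRCm38.p6), used for names and promoter windows, and were found for 25035 of 28096 identifiers. The 47 genes and the lists were chosen with earlier results of these data known. All 47 and the 3 highest genes of each list were named; others outside the list's 3 highest were named after their values were seen. Some listed genes and 1 allele are not reported here.

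Spread was tested on the counts with edgeR 4.0.16 (TMM, filterByExpr, quasi-likelihood fit with an intercept, gene dispersion over the trended prior against F, Benjamini-Hochberg over all genes), after a check on simulated data, and with DESeq2 1.42.0. Log2 values used a pseudocount of 1, which understates differences of low genes. Gene lengths implied by the deposited values were scaled so that their median ratio to GENCODE transcripts was 1. Alternatives changed the floor, level threshold, pseudocount, scaling, filter, tool and libraries used.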

Additional observations from a re-analysis of the deposited data

Results flagged for a closer look

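Of 60 sets of 4 libraries examined, 40 of single genes and 20 of summed lists, 3 had a library far from the other 3, and chance gives about 1 in 20. Rora had 7.86 nRPKM in library 4, against 5.68 to 5.81 in libraries 1 to 3. The summed level of the other coregulator genes was 229 nRPKM in library 1, against 261 to 266 in the others. The summed level of the ligand metabolism genes was 92 nRPKM in library 1, against 61.0 to 65.7 in the others, with Rdh10 at 36.8 nRPKM there.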

How the results depend on the processing

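Related genes were compared within each library, but libraries could not be paired, because the labels give a single group and no replicate numbers. The count of genes called as varying between libraries beyond the trend was 2 of 13156 and depended on the settings. It was 15 without the filter on low counts, 71 as DESeq2 dispersion outliers, and 0 to 6 when a library was left out. It was 6 without library 1, and 0 without library 2 and without library 3. Leaving out library 2 and library 3 gave 640 and 628 genes at an unadjusted p under 0.05 in edgeR. None of the 47 genes was among those calls in any of these settings. Over all results, 111 alternative values kept their direction (for counts, stayed within 1.5 times) and 5, all of this count, did not. The number of the 47 read in all libraries was 33 with more than 10 reads asked for, and 34 to 35 when a library was left out; the number at a mean of 1 nRPKM or more was 30 with TMM scaling, 31 at a threshold of 0.5 and 26 without the 6 genes with over 5% of their exon bases in another protein-coding gene. The last of these, and other scalings of the order in library 4 (14 lowest under each of 3 scalings, 8 to 10 highest; scaled to the total without mitochondrial ribosomal RNA, 46.7% lowest against 35.5% of comparable genes and 26.7% highest against 20.7%), were chosen after the data were seen. No difference between paralogs could be had without a pseudocount for Esr1 and Esrra pairs, since their partners had libraries at 0 reads. Depth limits what can be said of genes with under 10 reads in every library, such as Esr1 and Nr1h4.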
